A study of Mus musculus with 24 samples.

Results

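The insulin-like growth factor (IGF) axis was examined in the neural retina and the eye cup of PRDM13-OE and wildtype mice. The 10 genes described here are the ligands Igf1 and Igf2, the receptor Igf1r, the binding proteins Igfbp2 to Igfbp7 and the imprinted non-coding gene H19. They were taken by gene symbol from the 56748 genes of the deposited table, and each symbol matched 1 row. PRDM13-OE mice are heterozygous for a knock-in at Rosa26 on the C57BL/6J background, in which the ubiquitous EF-1α promoter drives the reverse tetracycline transactivator and TRE3G drives 3xHA-tagged human PRDM13. A single knock-in line was used, and wildtype littermates carried no copy. Mice of each genotype were either untreated or given doxycycline (dox) for 72 hours from P28, at 2 mg/mL with 10% sucrose in the drinking water, so that dox was always given together with sucrose. With 3 mice in each of the 4 groups and both tissues taken from every mouse, there were 12 mice and 24 libraries. The eye cup holds the retinal pigment epithelium (RPE), choroid and sclera.

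IGF1 and IGF2 are secreted ligands that signal through the IGF1 receptor, a receptor tyrosine kinase. The IGF binding proteins are secreted too, carry the ligands in tissue fluid and matrix, and can hold them back from the receptor or release them to it. Igf2 and H19 lie next to each other in an imprinted domain, in which Igf2 is transcribed from the paternal and H19 from the maternal chromosome, and H19 is known as a transcript that falls steeply after birth in most tissues. In the eye, IGF signalling is best known for its part in vessel growth of the retina and in growth of the sclera and choroid.

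Read counts on genes ran from 16034800 to 21513207 per retina and from 15825059 to 24908314 per eye cup. No pair of the 276 possible pairs of libraries held copied values. The rod marker list (10 genes) summed to between 49659.6 and 73333 CPM (read counts scaled to library depth) in the retinas, and the RPE list (8 genes) to between 7823 and 55008 CPM in the eye cups and between 283 and 601 CPM in the retinas. Rod transcripts were not absent from the eye cups, where the rod list ran from 2999 to 51081 CPM. Retinal Xist, which is transcribed in cells with 2 X chromosomes, was at 0 CPM in 4 mice (untreated wildtype mice 1 and 3, wildtype dox mouse 3 and untreated PRDM13-OE mouse 3), and in 0 of the 3 PRDM13-OE dox mice. The labels do not give sex. Mouse Prdm13 was between 42.0 and 56.4 CPM in all 12 retinas, and the human transgene was not analysed here.

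CPM were scaled by edgeR's TMM factors over all 24 libraries. Comparisons of 3 mice with 3 mice used the quasi-likelihood test of edgeR. The same test compared eye cup with retina of the same 3 untreated wildtype mice, without pairing in the main fit. Pairing by mouse was an alternative. A gene was called where the Benjamini-Hochberg adjusted p over all genes tested was under 0.05 and the log2 fold change (log2FC) was past 1 in either direction. All 10 members passed the filter of at least 10 summed counts in every comparison. Levels of different genes were compared only as the deposited FPKM, which are per gene length.

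Of the members, 9 had a promoter entry in RefSeq (GRCm38.p6), with 13 entries in all. The 250 bases before the transcription start are shown for Igfbp7, the only member called between genotypes, for Igfbp6, the binding protein with the largest difference between the tissues, and for Igf1r, which was not called between them. Capitals mark each GC box (GGGCGG) or TATA box (TATAAA), searched on both strands with overlapping matches counted. The windows are chr5:77408046-77408295 (minus strand), chr15:102143936-102144185 (plus strand) and chr7:67952007-67952256 (plus strand).
Igfbp7: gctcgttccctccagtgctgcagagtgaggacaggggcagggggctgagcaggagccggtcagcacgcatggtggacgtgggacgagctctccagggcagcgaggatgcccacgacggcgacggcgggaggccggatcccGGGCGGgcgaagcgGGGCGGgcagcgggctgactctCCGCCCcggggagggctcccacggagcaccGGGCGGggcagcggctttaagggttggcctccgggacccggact
Igfbp6: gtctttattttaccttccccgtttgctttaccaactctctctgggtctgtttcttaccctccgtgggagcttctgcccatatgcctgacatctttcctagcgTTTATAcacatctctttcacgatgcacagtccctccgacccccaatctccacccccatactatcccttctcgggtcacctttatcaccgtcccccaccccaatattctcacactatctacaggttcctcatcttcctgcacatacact
Igf1r: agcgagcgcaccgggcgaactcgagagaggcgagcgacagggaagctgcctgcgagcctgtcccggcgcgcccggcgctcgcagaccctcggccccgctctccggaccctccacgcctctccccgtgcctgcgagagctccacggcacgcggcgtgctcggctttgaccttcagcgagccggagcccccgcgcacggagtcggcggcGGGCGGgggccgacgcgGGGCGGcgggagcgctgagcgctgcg
The Igfbp7 window held 4 GC boxes, the Igf1r window 2 and the Igfbp6 window 0, and a GC box was in 32.7% of all 32851 promoter windows of this length. A TATA box was found once in the Igfbp6 window, on the minus strand, and in 12.4% of all windows. GC content was 74.0% in the Igfbp7 window, 77.6% in the Igf1r window and 49.6% in the Igfbp6 window, and its median over all windows was 52.4%. Across the 13 member windows, 5 held a GC box, 2 a TATA box, 8 an E-box (spelled CANNTG) and 3 a CCAAT box (spelled CCAAT), both searched on either strand. An E-box was in 66.2% and a CCAAT box in 33.8% of all windows.

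In untreated wildtype mice, the eye cup held far more transcript of the binding proteins and of H19 than the retina did, while Igf1r levels lay close together. Of the 10 members, 8 were higher in the eye cup and 0 were lower by edgeR, where 25.9% of all genes tested were called higher and 19.3% lower. The median log2FC of the members was 4.23, compared with 0.06 over all genes. The members called were H19, all 6 binding proteins and Igf1.

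Igf1 (ENSMUSG00000020053, GRCm39 chromosome 10, 87694127 to 87772904, plus strand) encodes the main growth-promoting ligand. It was at 27.4, 26.0 and 29.5 CPM in the untreated wildtype retinas and at 66.3, 42.1 and 76.5 CPM in the eye cups of the same mice. The groups did not overlap, and the log2FC was 1.22 (SE 0.21, edgeR adjusted p = 0.00177). This fold lay near the cutoff and dropped below it without eye cup 3 (0.99, edgeR adjusted p = 0.00945) and with library size alone as scaling (0.92, edgeR adjusted p = 0.00457). Without TMM factors the median of all genes in this comparison shifted by −0.30 on the log2 scale.
Igf2 (ENSMUSG00000048583, chromosome 7, 142204503 to 142220553, minus strand), the ligand best known from fetal growth, was low in both tissues. It was at 1.78, 2.15 and 2.77 CPM in these retinas and at 6.19, 2.80 and 1.85 CPM in these eye cups, and the groups overlapped (log2FC 0.75, SE 0.46, edgeR adjusted p = 0.188). Igf2 shares 7124 bases with the antisense gene Igf2os, which had at most 26 counts in any library. Whether the counting used strand is not given in the sources used here, so reads from the 2 genes cannot be told apart. On the same strand, Gm49394 shares 16048 bases with Igf2 and had 0 counts in 23 libraries and at most 3 in the other. How reads on these shared bases were assigned is not known here, so Igf2 values are uncertain.

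H19 (ENSMUSG00000000031, chromosome 7, 142129262 to 142131886, minus strand) had the largest difference of the members between the tissues. It was at 0.365, 0.410 and 0.357 CPM in the untreated wildtype retinas and at 145, 102 and 109 CPM in the eye cups, 324-fold higher (log2FC 8.34, SE 0.21, edgeR adjusted p = 1.6e-06). Over all 12 mice, retinas had between 6 and 27 H19 counts and eye cups between 480 and 3598. The eye cup to retina ratio of the same mouse ran from 26.2 to 649, with a median of 133.
H19 is also the host of Mir675, which lies in an exon of H19 in GENCODE vM39, and Mir483 lies within Igf2 outside its exons. The mature sequences from RefSeq (GRCm38.p6) are shown because H19 read counts say nothing of these processed products. Capitals mark the seed, bases 2 to 8.
mmu-miR-675-5p: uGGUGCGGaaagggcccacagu
mmu-miR-675-3p: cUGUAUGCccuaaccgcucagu
mmu-miR-483-5p: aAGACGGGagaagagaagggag
mmu-miR-483-3p: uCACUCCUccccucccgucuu
The 4 seeds differ from each other. Mir675 had 0 counts in all 24 libraries and Mir483 had 0 counts in 23 of them, with 1 count in the other. These libraries were made from polyA RNA, so mature miRNAs were not captured as such.

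Igf1r (ENSMUSG00000005533, chromosome 7, 67602575 to 67883416, plus strand) encodes the receptor through which both ligands signal. It was at 155, 139 and 141 CPM in the untreated wildtype retinas and at 138, 125 and 113 CPM in the eye cups. The eye cups lay just below the retinas, and the log2FC was −0.14 (SE 0.12, edgeR adjusted p = 0.339).

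The 6 binding proteins were 8.70-fold to 46.0-fold higher in the eye cups of untreated wildtype mice. Igfbp6 (ENSMUSG00000023046, chromosome 15, 102052797 to 102057946), which prefers IGF2, was at 2.96, 2.41 and 3.13 CPM in the retinas and at 107, 149 and 117 CPM in the eye cups (log2FC 5.52, SE 0.22, edgeR adjusted p = 3.4e-06). Igfbp3 (ENSMUSG00000020427, chromosome 11, 7156086 to 7163923), the main carrier of IGFs in blood, was at 4.83, 4.66 and 3.35 CPM in the retinas and at 206, 187 and 109.8 CPM in the eye cups (5.36, SE 0.30, edgeR adjusted p = 9.4e-06). For both genes the lowest eye cup lay far above the highest retina. In all, 8 members were higher without overlap and 1 (Igf1r) was lower, where 34.8% and 36.4% of all genes were.
Igfbp7 (ENSMUSG00000036256, chromosome 5, 77497087 to 77555888, minus strand), a low-affinity binding protein also found in vessel walls, was at 28.3, 19.6 and 27.4 CPM in the retinas and at 546, 613 and 803 CPM in the eye cups (4.77, SE 0.25, edgeR adjusted p = 7.9e-06). Igfbp5 (ENSMUSG00000026185, chromosome 1, 72897091 to 72914043), a matrix-bound binding protein, was at 73.2, 65.6 and 76.4 CPM in the retinas and at 1478, 1763 and 1316 CPM in the eye cups (4.48, SE 0.19, edgeR adjusted p = 4.0e-06). Its neighbour on chromosome 1, Igfbp2 (ENSMUSG00000039323, 72863662 to 72891633), was at 35.1, 27.5 and 29.9 CPM and at 396, 445 and 554 CPM (3.99, SE 0.20, edgeR adjusted p = 6.6e-06).
Igfbp4 (ENSMUSG00000017493, chromosome 11, 98932070 to 98945218), a binding protein cleaved by the protease PAPP-A, had the smallest difference of the binding proteins. It was at 58.3, 57.4 and 65.1 CPM in the retinas and at 474, 526 and 496 CPM in the eye cups (3.12, SE 0.14, edgeR adjusted p = 4.7e-06). For all 6 binding proteins the groups did not overlap, and none of their calls was lost under any alternative tried.

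**Figure D1:**
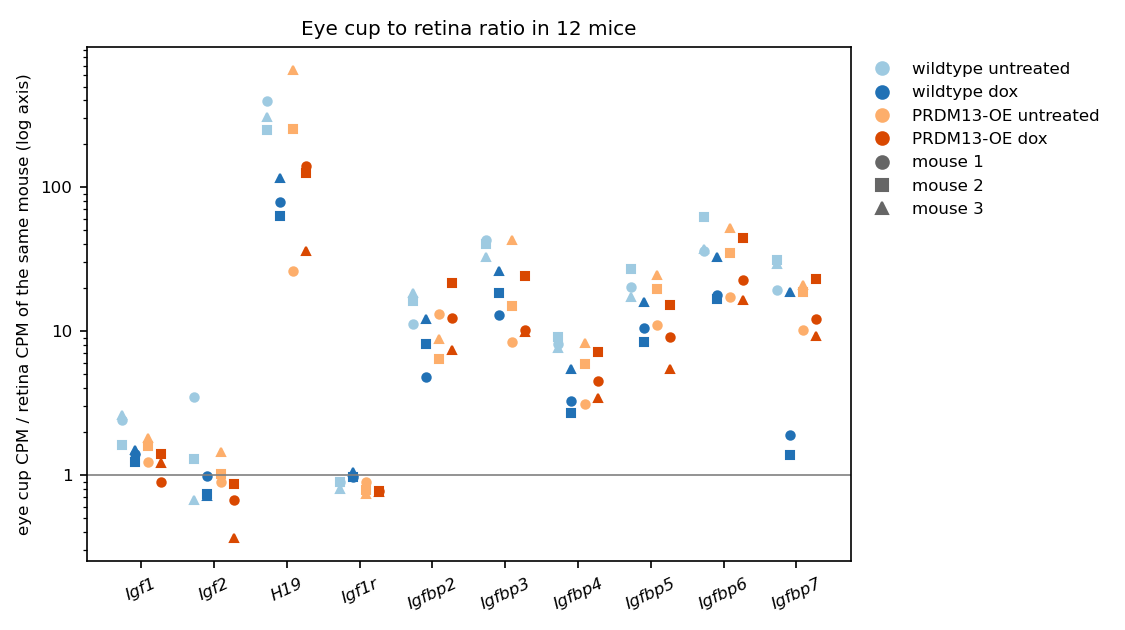
Ratio of eye cup CPM to retina CPM within each mouse (log axis), for the 10 members, where each point is 1 of 12 mice, the colour is its group, the marker its number within that group, and the line marks a ratio of 1. H19 and Igfbp2 to Igfbp7 lay above 1 in all 12 mice, Igf1 in 11, Igf2 in 4 and Igf1r in 1, and the wildtype dox mice 1 and 2 stood apart for Igfbp7.

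The tissue difference of the binding proteins and H19 was found in every group, as the plot of eye cup to retina ratios shows. H19 and Igfbp2 to Igfbp7 were higher in the eye cup in 12 of 12 mice, while Igf1 was higher in 11, Igf2 in 4 and Igf1r in 1. The median ratio over the mice was 33.7 for Igfbp6, 21.2 for Igfbp3, 18.8 for Igfbp7, 15.5 for Igfbp5, 11.7 for Igfbp2 and 5.70 for Igfbp4. For Igf1 it was 1.45 (range 0.895 to 2.59), for Igf2 0.878 (0.365 to 3.48) and for Igf1r 0.846 (0.739 to 1.06). The lowest Igfbp7 ratio, 1.37, came from wildtype dox mouse 2.

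Per gene length, Igfbp7 and then Igfbp2 had the highest means over the 12 libraries of each tissue. By group means in the eye cups, Igfbp2 was above Igfbp5 only in PRDM13-OE dox (221 against 125 FPKM). In the 12 eye cups, Igfbp7 had the highest mean at 397 ± 182 (SD, n = 12) FPKM, followed by Igfbp2 at 196 ± 80.2 and Igfbp5 at 190.1 ± 72.5 FPKM (SD, n = 12). Then came Igfbp6 at 91.1 ± 44.5, Igfbp4 at 84.9 ± 31.7, H19 at 35.6 ± 22.4 and Igfbp3 at 34.8 ± 20.3 FPKM (SD, n = 12). Neighbours among these 7 overlapped across libraries, and Igfbp2 and Igfbp5, Igfbp6 and Igfbp4, and H19 and Igfbp3 differed by far less than their SDs. Igf1r was at 7.88 ± 0.662, Igf1 at 4.67 ± 1.46 and Igf2 at 0.475 ± 0.218 FPKM (SD, n = 12), and the highest Igf2 value of 1.08 FPKM was below the lowest Igf1 value of 2.54 FPKM.
In the 12 retinas, Igfbp7 had a median of 23.0 FPKM, with a range from 15.6 to 167. Igfbp2 was at 16.6 ± 1.51, Igfbp4 at 14.9 ± 1.93 and Igfbp5 at 12.6 ± 2.22 FPKM (SD, n = 12), and their ranges overlapped. Igf1r at 9.06 ± 0.692 FPKM and Igf1 at 2.92 ± 0.276 FPKM (SD, n = 12) did not overlap each other. Igfbp6 at 2.81 ± 0.741, Igfbp3 at 1.49 ± 0.530, Igf2 at 0.476 ± 0.126 and H19 at 0.240 ± 0.132 FPKM (SD, n = 12) were the lowest, and H19 had the lowest mean. Summed over the 10 members, FPKM ran from 67.4 to 237 in the retinas and from 529 to 1591 in the eye cups.

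**Figure D2:**
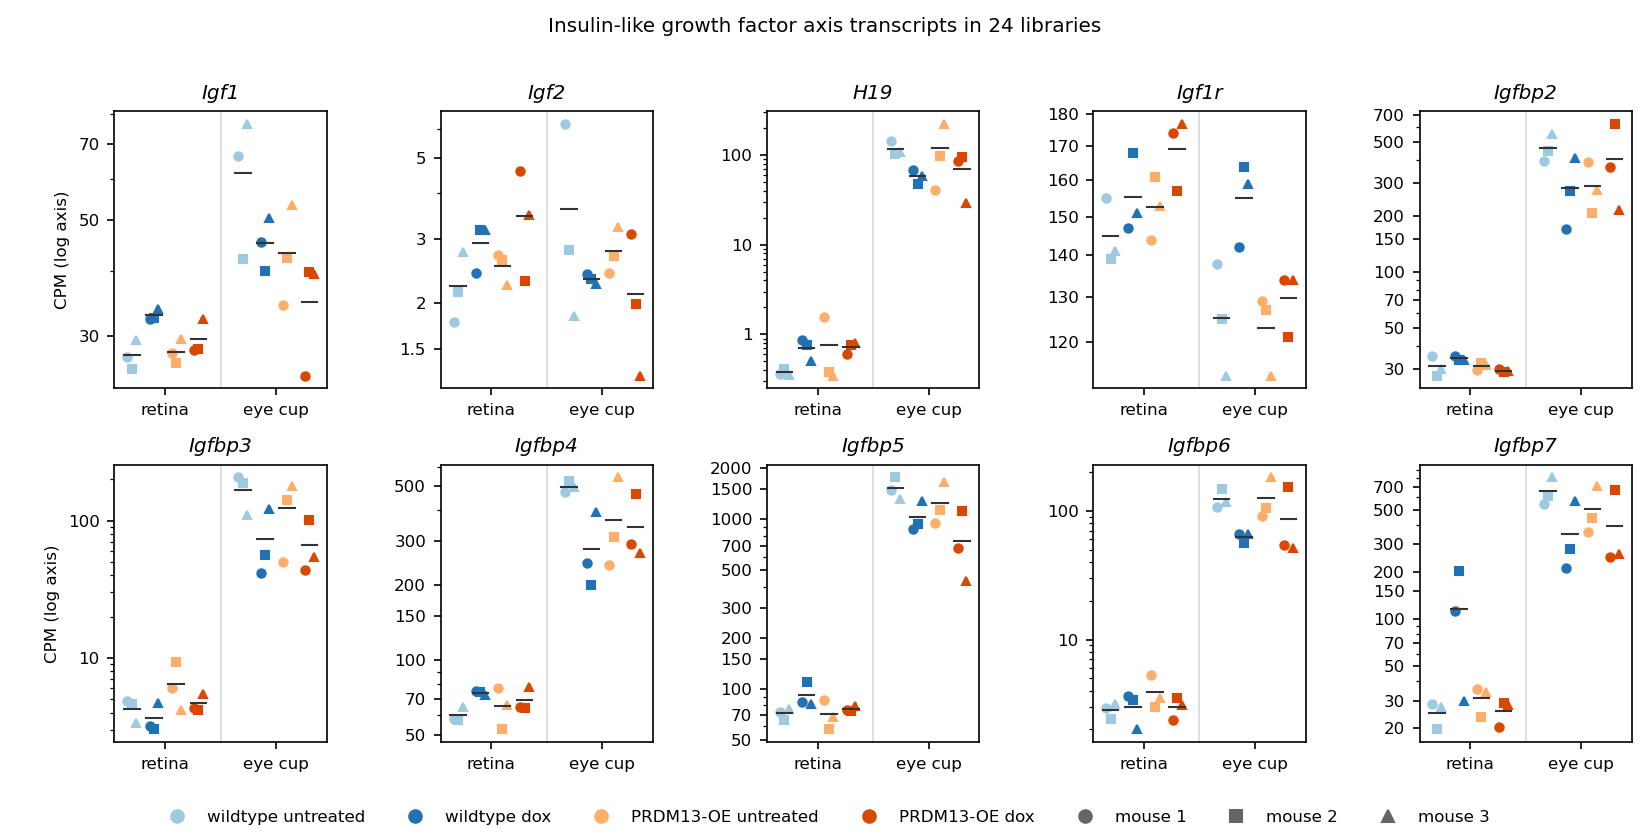
CPM of the 10 members in all 24 libraries (log axes that differ between panels), with 1 point per library, the colour for the group, the marker for the mouse number within the group and a bar for the mean of 3. H19 and Igfbp2 to Igfbp7 separated the tissues, and Igfbp7 was at 112 and 203 CPM in wildtype dox retinas 1 and 2 and at 35.3 CPM or less in the other 10 retinas.

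In the retina, the comparison of PRDM13-OE dox with wildtype dox mice asks what elevated PRDM13 does when both genotypes received dox. Only Igfbp7 was called, and it was lower in PRDM13-OE (1 of 10 members, where 2.41% of all genes tested were called). It was at 20.3, 28.8 and 28.0 CPM in the PRDM13-OE dox retinas and at 112, 203 and 30.0 CPM in the wildtype dox retinas. Wildtype dox retina 3 lay just above the highest PRDM13-OE dox retina, while wildtype dox retinas 1 and 2 stood above every other retina. The log2FC was −2.16 (SE 0.47, edgeR adjusted p = 0.0115), or 4.47-fold lower.
The untreated retinas were near the PRDM13-OE dox level, at 28.3, 19.6 and 27.4 CPM in wildtype and at 35.3, 23.7 and 33.9 CPM in PRDM13-OE. Igfbp7 shares 85 bases with Polr2b on the other strand. With each library left out in turn, the log2FC ran from −2.61 to −1.46, and Igfbp7 was no longer called without PRDM13-OE dox retina 1, 2 or 3 (edgeR adjusted p = 0.0572, 0.0550 and 0.0517). Nor was it called with robust fitting (edgeR adjusted p = 0.185).

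The wildtype dox retinas with high Igfbp7 were also those with the most lens transcripts. The lens list (12 genes) summed to 10619.8, 4349 and 95.4 CPM in the wildtype dox retinas and to 16.3, 24.4 and 4.33 CPM in the PRDM13-OE dox retinas. All 11 lens genes tested were called lower in PRDM13-OE dox than in wildtype dox, with a median log2FC of −8.52, and the remaining lens gene was at 0 in every retina. With the lens list level as a covariate over all 12 retinas, the log2FC of Igfbp7 was −0.08 (edgeR adjusted p = 0.967). With wildtype dox retinas 1 and 2 left out, so that a single wildtype dox retina remained and was assumed to vary like the other group, it was −0.23 (edgeR adjusted p = 0.407), an alternative chosen after seeing the data.
Other lists moved with this comparison as well. The endothelial list (10 genes) summed to 195, 169.7 and 175 CPM in PRDM13-OE dox and to 356, 339 and 335 CPM in wildtype dox, with 1 of its 10 genes called lower. The blood list (6 genes) summed to 0.663, 0.719 and 1.11 CPM compared with 29.3, 73.0 and 34.5 CPM, and all 5 of its genes tested were called lower. The fibroblast and sclera list (10 genes) summed to 43.6, 138 and 148 CPM in PRDM13-OE dox and to 272, 244 and 195 CPM in wildtype dox, with 2 genes called lower, and the pericyte and smooth muscle list (10 genes) to 102, 119 and 117 CPM and to 171, 133 and 138 CPM, also with 2. Of the pigment cell list 4 of 8 genes and of the cone list 6 of 8 were called lower, and 1 cone gene was higher. Other list sums lay lower in PRDM13-OE dox without overlap, namely rod (49659.6 to 55686 against 67239 to 69395 CPM), amacrine and ganglion cell (1529 to 1543 against 1625 to 1789 CPM), RPE (283 to 302 against 378 to 476 CPM) and leptomeninges and optic nerve glia (119.8 to 152 against 216 to 303 CPM). The microglia list lay higher (64.9 to 71.4 against 53.6 to 62.3 CPM). Their part in the Igfbp7 result was not tested. In bulk tissue, fewer cells of a type and less RNA per cell cannot be told apart.

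**Figure D3:**
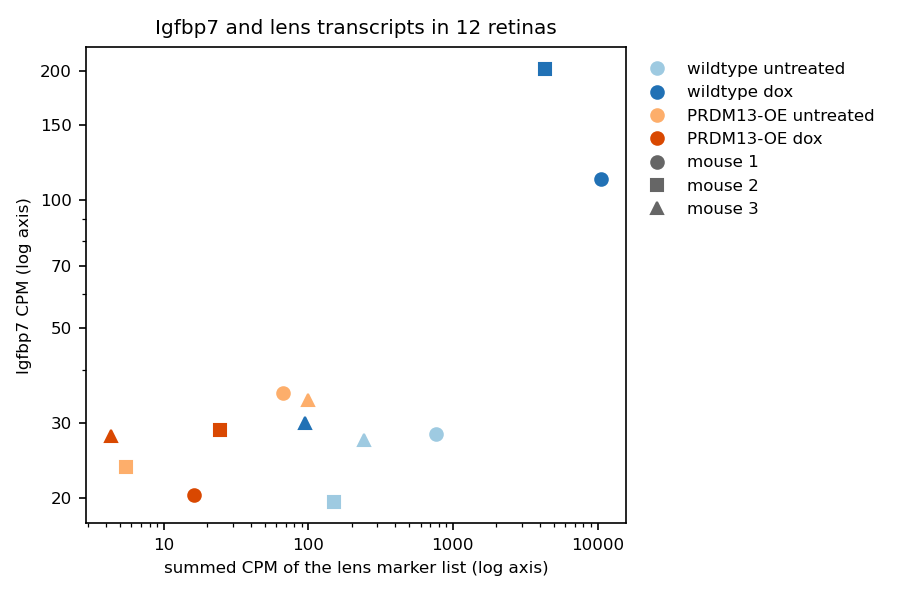
Igfbp7 CPM against the summed CPM of the lens marker list in the 12 retinas (both axes log), with colours for the groups and markers for the mouse number within a group. Wildtype dox retinas 1 and 2 lie alone at the upper right, at 112 and 203 CPM of Igfbp7, while the other 10 retinas lie between 19.6 and 35.3 CPM at lens sums from 4.33 to 770.1 CPM.

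The other 9 members were not called between the dox-treated genotypes in the retina. Igfbp2 passed the adjusted p, as did 12.5% of all genes, but not the fold cutoff, at 29.9, 28.8 and 29.1 CPM in PRDM13-OE dox and 35.3, 33.6 and 33.6 CPM in wildtype dox (log2FC −0.22, SE 0.06, edgeR adjusted p = 0.0368). The groups did not overlap. With the lens list as covariate it was −0.15 (edgeR adjusted p = 0.684), and over the alternatives its edgeR or DESeq2 adjusted p ran from 0.0342 to 0.684. Igfbp5, at 74.7, 73.5 and 79.6 CPM in PRDM13-OE dox and 83.3, 110.4 and 81.0 CPM in wildtype dox, did not overlap either, with an adjusted p of 0.103 by edgeR and 0.0409 by DESeq2 at a log2FC of −0.27. Counting Igfbp2, Igfbp5 and Igfbp7, 3 members lay lower without overlap and 0 lay higher, where 16.1% and 15.6% of all genes did.
Igf1 was between 28.2 and 32.4 CPM in PRDM13-OE dox and between 32.4 and 33.8 CPM in wildtype dox. Igf1r was between 157 and 177 CPM and between 147 and 168 CPM in these groups, and H19 was below 1 CPM in each of the 6 retinas. Igf2, Igfbp3, Igfbp4 and Igfbp6 also overlapped between the genotypes.

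Among the other genes of the IGF and insulin pathway, a list of 34 genes, 32 were tested in this comparison and 3 were called, all lower in PRDM13-OE dox. Igfals, which encodes the acid-labile subunit of the circulating IGF complex, had a log2FC of −2.48 (SE 0.64, edgeR adjusted p = 0.0270). Htra3, a secreted serine protease with an IGF-binding domain, was at −2.45 (SE 0.65, edgeR adjusted p = 0.0282), and Igf2bp1, which binds Igf2 mRNA, was at −1.93 (SE 0.43, edgeR adjusted p = 0.0128). Igfals and Igf2bp1 were low, with 87 and 63 counts over the 6 libraries, and the groups overlapped for Htra3. The share of all genes called in this comparison was 2.41%. As with Igfbp7, the wildtype dox group had the highest fitted levels of these genes. Against untreated wildtype retinas their log2FC was 2.63 for Igfals, 2.31 for Htra3 and 1.79 for Igf2bp1 (edgeR adjusted p = 0.270, 0.303 and 0.252), while PRDM13-OE dox differed from untreated PRDM13-OE retinas by −0.22, 0.01 and −0.80 (edgeR adjusted p = 0.929, 0.989 and 0.688). The part of the lens-high wildtype dox retinas in these 3 calls was not tested. The median of the list was −0.10, compared with 0.01 over all genes. Ins1 had 0 counts and Igfbp1 had 8 counts over the 6 retinas. None of the 12 imprinted genes (median 0.20) and none of the 9 neighbours of Igf2 and H19, of which 5 could be tested, was called by edgeR, with 6 and 0 of them at an unadjusted p under 0.05, where 26.6% of all genes had such a p.

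Wildtype dox and wildtype untreated retinas were compared to see what dox with sucrose does by itself. None of the 10 members was called by edgeR or DESeq2, 4 were at an unadjusted p under 0.05, where edgeR called 0.00485% and DESeq2 0.126% of all genes and 9.32% had such a p. This comparison shares the wildtype dox libraries with the one before, so its values are no separate support. Igfbp7 again had the largest log2FC of the members (2.20, SE 0.48, edgeR adjusted p = 0.207), from the same wildtype dox libraries. Without wildtype dox retina 3 it was 2.65 (edgeR adjusted p = 1.2e-04), and without wildtype dox retinas 1 and 2 it was 0.25 (edgeR adjusted p = 0.992).
The wildtype dox retinas lay above the untreated ones without overlap for 5 members (Igf1, H19, Igfbp4, Igfbp5 and Igfbp7), where 6.87% of all genes did. Igf1 was at 32.4, 32.5 and 33.8 CPM with dox and at 27.4, 26.0 and 29.5 CPM without. Igfbp4 was at 75.3, 74.7 and 72.2 CPM with dox and at 58.3, 57.4 and 65.1 CPM without, and its adjusted p was 0.207 by edgeR and 0.0329 by DESeq2 at a log2FC of 0.30. H19 stayed below 1 CPM in these 6 retinas. Marker list sums also lay higher with dox without overlap for fibroblast and sclera (195 to 272 against 97.1 to 153 CPM), Müller glia (5931 to 5985 against 4989 to 5541 CPM), microglia (53.6 to 62.3 against 44.6 to 51.2 CPM), reactive glia (349 to 376 against 322 to 325 CPM) and ciliary and iris epithelium (171 to 199.5 against 159.5 to 169 CPM). The cone list lay lower (1364 to 1416 against 1534 to 1567 CPM). The 1 gene that edgeR called in this comparison, higher with dox, belongs to the leptomeninges and optic nerve glia list. The part of these lists in the member levels was not tested. Their part in the member levels was not tested.

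Untreated PRDM13-OE and wildtype retinas had none of the 10 members called by edgeR or DESeq2, with 1 (Igfbp3) at an unadjusted p under 0.05, where edgeR called 0% and DESeq2 0.00968% of all genes and 3.76% had such a p. PRDM13-OE dox and untreated PRDM13-OE retinas likewise had none called by either tool, with 1 (Igf1r) at an unadjusted p under 0.05, where edgeR called 1.04% and DESeq2 0.927% of all genes and 15.6% had such a p. Igfbp3 was at 6.02, 9.37 and 4.15 CPM in untreated PRDM13-OE retinas and at 4.83, 4.66 and 3.35 CPM in untreated wildtype retinas. Igf1r was at 174, 157 and 177 CPM in PRDM13-OE dox retinas and at 144, 161 and 153 CPM in untreated PRDM13-OE retinas. In neither case did the groups separate.
The interaction of genotype with dox, fitted over the 12 retinas, called Igfbp7 alone among the members (log2FC −2.45, SE 0.59, edgeR adjusted p = 0.0274), where 0.870% of all genes were called. This value rests on the wildtype dox libraries named above and shares them with both dox comparisons. Without wildtype dox retinas 1 and 2 it was −0.52 (edgeR adjusted p = 0.544). The call was also lost with robust fitting (edgeR adjusted p = 0.216) and without wildtype dox retina 2, without untreated wildtype retina 2 or 3, without untreated PRDM13-OE retina 1 or 3, or without any of the 3 PRDM13-OE dox retinas (edgeR adjusted p from 0.0546 to 0.0774 in these 8 fits).

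**Figure D4:**
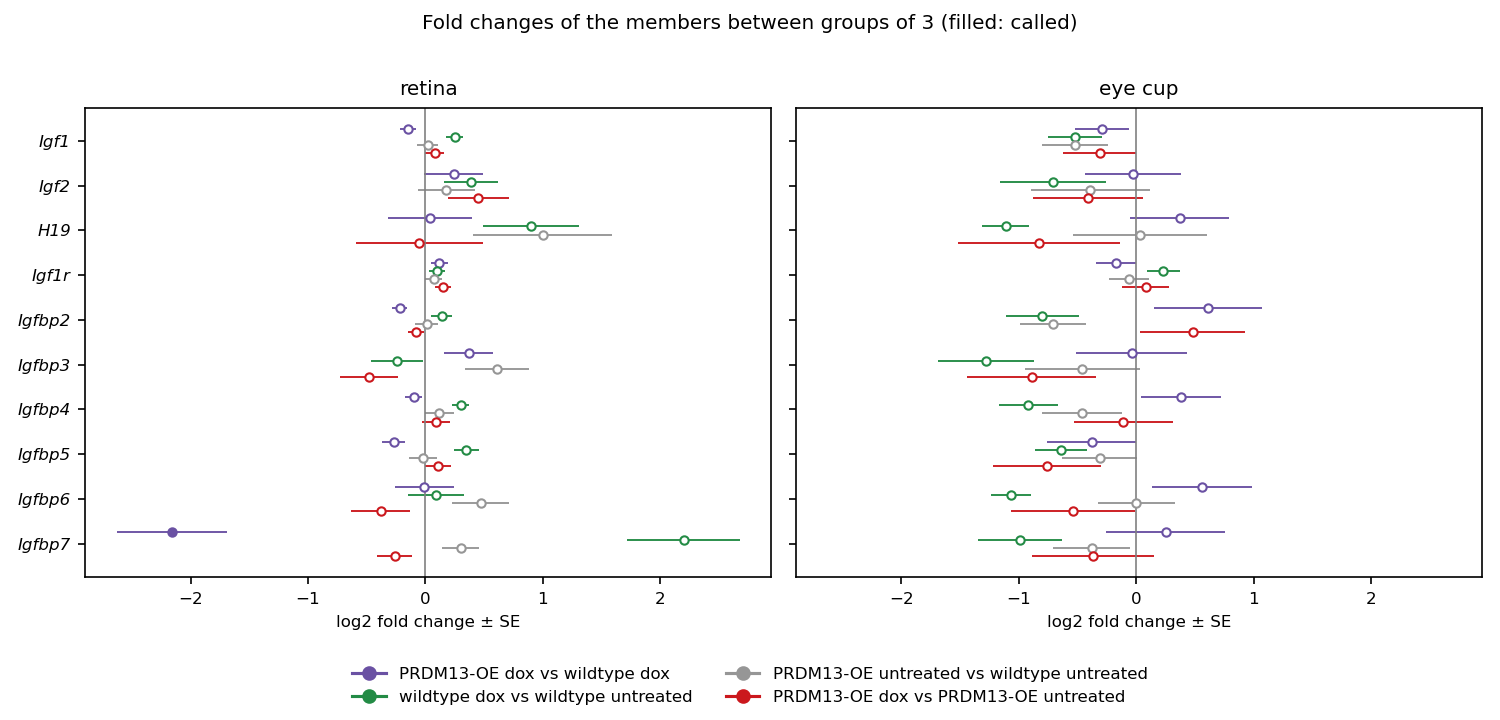
Log2FC of the 10 members with their SE in 4 comparisons of 3 against 3 libraries, in retina and eye cup, with filled points for called members. Igfbp7 in the retina was the only called member (−2.16 for PRDM13-OE dox against wildtype dox), and in the eye cup 9 of the 10 members lay below 0 for wildtype dox against wildtype untreated.

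In the eye cup, wildtype mice given dox had lower mean levels of 9 of the 10 members than untreated wildtype mice, but none of these differences was called by edgeR. Of all genes tested, 52.5% had a log2FC below 0. With edgeR, 0 of 10 members were called and 7 were at an unadjusted p under 0.05, all of them lower, where 0% and 14.3% of all genes were. DESeq2 called 3 members lower (H19, Igfbp3 and Igfbp6), where it called 2.74% of all genes lower. The median log2FC of the members was −0.86, compared with −0.05 over all genes. Library size alone as scaling shifted the median of all genes by 0.18, and no member changed sign with it. Untreated PRDM13-OE eye cups also had a log2FC below 0 for 9 of the 10 members against the same untreated wildtype eye cups. There the median was −0.39, compared with 0.00 over all genes. Both comparisons share the untreated wildtype libraries.

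H19 was at 68.6, 47.3 and 58.4 CPM in wildtype dox eye cups and at 145, 102 and 109 CPM in untreated wildtype eye cups. The groups did not overlap (log2FC −1.11, SE 0.20, edgeR adjusted p = 0.0673). Igfbp6 was at 65.8, 56.4 and 65.6 CPM with dox and at 107, 149 and 117 CPM without, also with no overlap (−1.07, SE 0.17, edgeR adjusted p = 0.0673).
Igfbp3 was at 41.5, 55.8 and 122 CPM with dox and at 206, 187 and 109.8 CPM without. Wildtype dox eye cup 3 lay within the untreated range, and the log2FC was −1.28 (SE 0.41, edgeR adjusted p = 0.0964). Igfbp4 was at 246, 201 and 393 CPM with dox and at 474, 526 and 496 CPM without (−0.92, SE 0.25, edgeR adjusted p = 0.0772). Here all dox eye cups were below all untreated ones.
Igfbp7 (−0.99, SE 0.36, edgeR adjusted p = 0.123) and Igfbp2 (−0.80, SE 0.31, edgeR adjusted p = 0.137) overlapped between the groups, each through wildtype dox eye cup 3, at 564 and 408 CPM. Igfbp5 was at 872, 935 and 1283 CPM with dox and at 1478, 1763 and 1316 CPM without (−0.64, SE 0.22, edgeR adjusted p = 0.108), and the groups did not overlap. Igf1 (−0.52, SE 0.23, edgeR adjusted p = 0.169) and Igf2 (−0.71, SE 0.45, edgeR adjusted p = 0.328) overlapped. With 1 eye cup left out, the log2FC ran from −0.73 to −0.33 for Igf1 and from −1.02 to −0.09 for Igf2.
Igf1r was the only member higher with dox, at 142, 164 and 159 CPM compared with 138, 125 and 113 CPM (0.23, SE 0.14, edgeR adjusted p = 0.305). In all, 4 members lay lower without overlap and 1 lay higher, where 13.4% and 23.8% of all genes did.

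The number of members called depended on single libraries. Without wildtype dox eye cup 3, edgeR called 5 members lower, namely H19 (−1.09, edgeR adjusted p = 0.0483), Igfbp6 (−1.10, edgeR adjusted p = 0.0455), Igfbp3 (−1.85), Igfbp7 (−1.49) and Igfbp4 (−1.23), the last 3 each with an edgeR adjusted p of 0.0424. In that fit 4.39% of all genes were called. Without untreated wildtype eye cup 1, Igfbp6 was the only member called (−1.18, edgeR adjusted p = 0.0221), where 9.41% of all genes were called, a share close to 1 of 10.

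The same eye cups differed in their rod and RPE transcripts, and in other marker lists. The rod list summed to 51081, 39314 and 27844 CPM in the wildtype dox eye cups and to 26559.7, 2999 and 12999 CPM in the untreated wildtype eye cups. All 3 eye cups with dox thus held more rod transcript than all 3 without. The RPE list moved the other way, at 10355, 11980.3 and 22119 CPM with dox and 31758, 38618 and 47309 CPM without. Dox eye cups were also lower without overlap in the summed lists of leptomeninges and optic nerve glia (7209 to 11981 against 15315 to 24328 CPM), microglia (212 to 261 against 346 to 462 CPM), Müller glia (9484 to 11338 against 13067 to 18984 CPM) and ciliary and iris epithelium (275 to 396 against 439.9 to 602 CPM). The leptomeninges and optic nerve glia list had a median log2FC of 0.62 over its 6 genes, opposite in sign to its sum. Higher without overlap, besides the rod list, were the cone list (511 to 889.6 against 73.2 to 435 CPM) and the amacrine and ganglion cell list (1047 to 1231 against 433 to 728 CPM). No single gene of these lists was called by edgeR.
With the rod list level as a covariate over all 12 eye cups, edgeR called no member and 0% of all genes. The fit of all 12 eye cups without this covariate called 0% of all genes as well. With the covariate, the log2FCs of H19, Igfbp6, Igfbp3 and Igfbp7 were −0.54, −0.27, −0.81 and −0.33 (edgeR adjusted p = 0.946, 0.947, 0.908 and 0.948). Igfbp5 changed sign in that fit, to 0.02 (edgeR adjusted p = 1.00). The part of the lists other than the rod list was not tested.

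**Figure D5:**
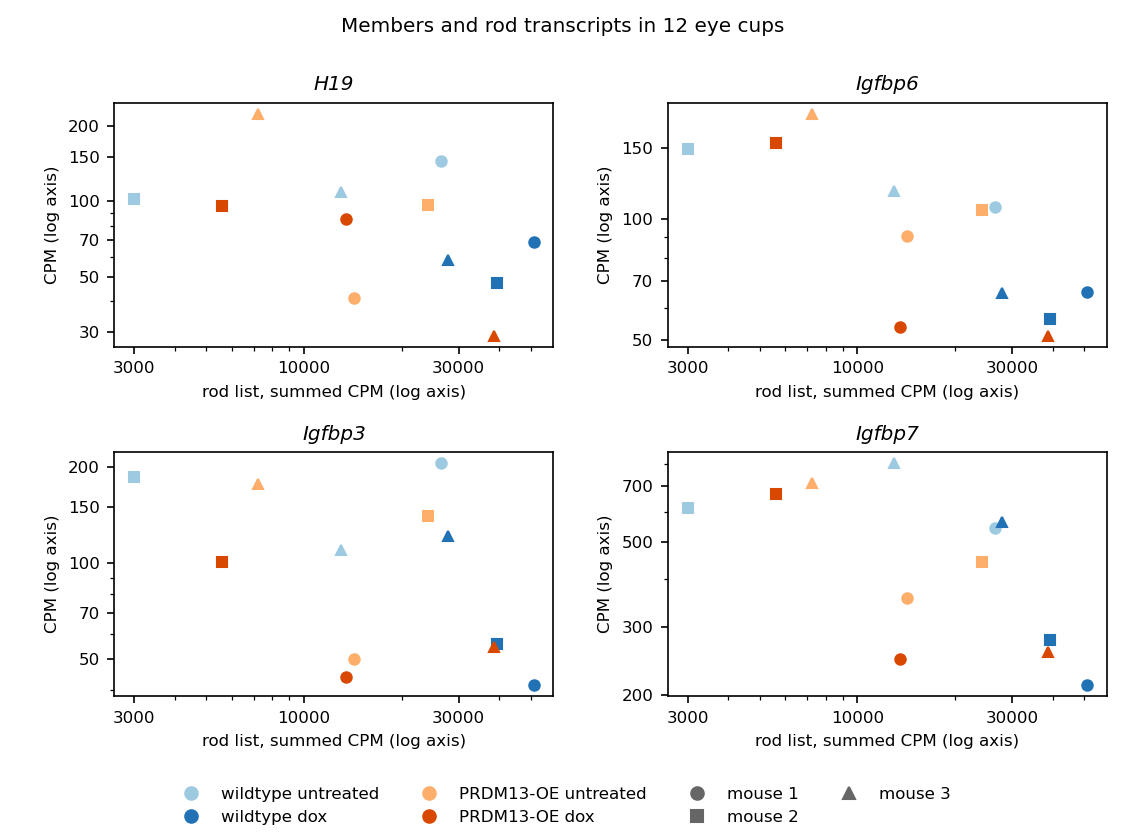
CPM of H19, Igfbp6, Igfbp3 and Igfbp7 against the summed CPM of the rod marker list in the 12 eye cups (all axes log), with colours for the groups and markers for the mouse number within a group. The wildtype dox eye cups lie at rod sums from 27844 to 51081 CPM, the untreated wildtype eye cups at rod sums from 2999 to 26559.7 CPM, and PRDM13-OE dox eye cup 3, at a rod sum of 38679 CPM, has the lowest H19 (29.0 CPM) and Igfbp6 (51.4 CPM) of the 12.

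The pathway list gave 0 calls by edgeR for dox in wildtype eye cups, with 11 of the 32 genes tested at an unadjusted p under 0.05 (7 higher and 4 lower) and a median of −0.03. Of all genes, 29.9% had such a p. No imprinted gene and no neighbour of Igf2 and H19 was called either, with 4 of 12 (1 higher) and 5 of 9 (1 higher) at an unadjusted p under 0.05. The neighbours had a median of −0.75 and the imprinted genes −0.21.

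Between PRDM13-OE dox and wildtype dox eye cups, none of the 10 members was called by edgeR or DESeq2 and 0 were at an unadjusted p under 0.05, where edgeR called 0.0184% and DESeq2 0.556% of all genes and 8.24% had such a p. Without PRDM13-OE dox eye cup 3, edgeR called 8.32% of all genes and still 0 members. Igf1 was at 25.2, 39.8 and 39.4 CPM in PRDM13-OE dox and at 45.5, 40.0 and 50.5 CPM in wildtype dox. Igf1r was at 134, 121 and 134 CPM in PRDM13-OE dox and at 142, 164 and 159 CPM in wildtype dox. These were the 2 members whose groups did not overlap, both lower in PRDM13-OE dox, where 11.0% of all genes lay lower without overlap. The blood list also lay lower without overlap (12.9 to 15.9 against 254 to 631 CPM), with 3 of its 6 genes called lower. So did the lens list (14.8 to 389 against 670.3 to 3109.5 CPM). Their part in the member levels was not tested.
The binding proteins varied widely among the PRDM13-OE dox eye cups. Igfbp2 was at 368, 626 and 216 CPM, Igfbp6 at 54.1, 154 and 51.4 CPM and Igfbp7 at 248, 668 and 259 CPM. PRDM13-OE dox eye cup 2 was the highest of its group for H19 and all 6 binding proteins, and it had the lowest rod list sum of the 3, at 5597 CPM compared with 13496 and 38679 CPM. Its cone and amacrine and ganglion cell sums were the lowest too. Among other lists, its sums were the highest for RPE (21403 against 7823 and 8727 CPM), fibroblast and sclera (3599 against 1573 and 1086 CPM) and endothelium (744 against 284 and 373 CPM). The part of these lists was not tested.

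Untreated PRDM13-OE and wildtype eye cups had none of the 10 members called by edgeR or DESeq2, with 1 (Igfbp2) at an unadjusted p under 0.05, where edgeR called 0% and DESeq2 0.0139% of all genes and 1.87% had such a p. Igfbp2 was at 391, 206 and 276 CPM in untreated PRDM13-OE and at 396, 445 and 554 CPM in untreated wildtype eye cups, lower without overlap, as were 2.82% of all genes. The surface epithelium list summed to 31652, 1453 and 1290.2 CPM in these PRDM13-OE eye cups and to 17399, 18759 and 17051 CPM in the wildtype ones. The reactive glia list lay higher in PRDM13-OE without overlap (1371 to 2234 against 625 to 1261 CPM). The part of these lists in the Igfbp2 values was not tested. H19 ranged more widely in untreated PRDM13-OE, at 40.9, 97.1 and 224 CPM, than in untreated wildtype. PRDM13-OE dox and untreated PRDM13-OE eye cups had none called by edgeR or DESeq2 and 0 at an unadjusted p under 0.05, where edgeR called 0.0139% and DESeq2 0.273% of all genes and 4.14% had such a p. The interaction of genotype with dox in the eye cup called none of the members by either tool, with 0 at an unadjusted p under 0.05, where edgeR called 0% and DESeq2 0.138% of all genes and 6.40% had such a p.

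Igfbp3 to Igfbp7 had correlations between 0.75 and 0.90 with each other across the 12 eye cups, and Igfbp2 between 0.38 (Igfbp3) and 0.70 (Igfbp7) with them. These are Pearson correlations of log2 CPM, and the highest was between Igfbp4 and Igfbp7. H19 had correlations between 0.67 and 0.78 with Igfbp3 to Igfbp7 and 0.30 with Igfbp2, and Igf1r had correlations below 0 with all other members, down to −0.60 with Igfbp6. These libraries share their groups and their varying rod content, so the values are descriptions.
Over the 14293 genes with at least 10 counts in every eye cup, the pattern most like Igfbp3 was that of Eng (0.98), Fam167b (0.98) and Cdh5 (0.97). For Igfbp5 it was Dcn (0.98), Col5a2 (0.96) and Tnmd (0.95), and for H19 it was Osr1 (0.95), Adamts10 (0.95) and Col3a1 (0.94). For Igfbp7 it was Ctns (0.98), Loxl1 (0.97) and Mdk (0.97) in the eye cups. In the 12 retinas, the pattern most like Igfbp7 was that of Hspg2 (0.98), Col4a2 (0.98) and Nid1 (0.97), among points of which wildtype dox retinas 1 and 2 lie apart for Igfbp7. Retinal levels of Igf1, Igf1r and Igfbp2 varied little, with coefficients of variation of 8.82%, 7.93% and 8.22% over the 12 libraries, compared with 111% for Igfbp7.

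Of the 32 other pathway genes tested in untreated wildtype mice, 10 were higher and 6 lower in the eye cup, with a median of −0.06. These shares were near those of all genes, of which 25.9% were called higher and 19.3% lower. The genes called higher included Igf2bp1 (log2FC 6.29, SE 0.27), the serine proteases Htra3 (3.36, SE 0.25) and Prss23 (3.60, SE 0.17) and the growth hormone receptor gene Ghr (1.86, SE 0.17). Igf2r, the imprinted scavenger receptor for IGF2, was higher at 1.15 (SE 0.21), and Ins2 was higher at 10.03 (SE 0.67). The genes called lower included Pappa (−2.43, SE 0.48), whose product PAPP-A cleaves Igfbp4, its inhibitor Stc2 (−1.94, SE 0.29) and Irs1 (−1.85, SE 0.19), which encodes an adaptor of the receptor. The edgeR adjusted p of the genes named here ran from 4.0e-06 to 0.00329.
Of the 12 imprinted genes, 4 were higher in the eye cup (Dlk1, Cdkn1c, Slc22a18 and Igf2r) and 1 was lower (Meg3), also near the shares of all genes. Of the 9 neighbours of Igf2 and H19 on chromosome 7, 8 were higher (Ins2, Ascl2, Tnnt3, Mrpl23, Lsp1, Syt8, Tnni2 and Ctsd) and 1 was lower (Th). Tnnt3 and Tnni2 are skeletal muscle genes, and the skeletal muscle list (10 genes) summed to 841, 1652 and 653 CPM in these eye cups and to 7.06, 4.25 and 4.11 CPM in these retinas. The surface epithelium list (7 genes) summed to 17399, 18759 and 17051 CPM in these eye cups and to 0.593, 0.256 and 0.894 CPM in these retinas. All 7 genes were called higher, and their median log2FC of 14.89 was the largest of the marker lists. The rod, cone and amacrine and ganglion cell lists had medians below 0. The part of muscle, surface epithelium, sclera and other tissue of the eye cup in the differences of the members was not tested.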

How the data were processed

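Neural retina and eye cup RNA from 12 mice was sequenced as 24 polyA libraries. Novogene mapped the reads to GRCm39 for the authors, whose processing notes name HISAT2 and CASAVA. The counting tool, annotation release and strand setting are not given in the sources used here. The authors deposited raw read counts per gene, which entered every test, and FPKM computed from gene length and read count, which were used only for levels between genes. Deposited fold changes and p-values of the authors' comparisons were not used.

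Counts were fitted with edgeR 4.0.16 in R 4.3.3 (TMM, quasi-likelihood test, robust off), over genes with at least 10 summed counts. DESeq2 1.42.0, library size, DESeq2 size factors, no filter, filterByExpr, robust fitting, no fold cutoff, a replicate block, all 12 libraries of a tissue in 1 fit, a marker list covariate and leaving out each library were the alternatives. Leaving out wildtype dox retinas 1 and 2 together was chosen after seeing the data. Simulated counts were fitted for PRDM13-OE dox against wildtype dox retinas, wildtype dox against untreated wildtype eye cups, and eye cup against retina. Changes were simulated in well-counted genes only, and the interactions were not simulated. The outcome is not given here. The mouse numbers pair eye cup and retina of the same mouse by label. In untreated wildtype mice 1, 2 and 3, the residual correlations between the tissues were 0.12, 0.14 and 0.11. The members and gene lists were chosen with earlier results of these data known. All members, pathway, imprinted or neighbouring genes called in a comparison, and the 3 genes most alike in pattern were eligible to be named. Sequences are from RefSeq. Figures were drawn with matplotlib 3.10.9 in python 3.11.15.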

Additional observations from a re-analysis of the deposited data

Results flagged for a closer look

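The interaction of genotype with dox in the retina differed from 0 for Igfbp7, at a log2FC of −2.45 (SE 0.59, edgeR adjusted p = 0.0274). It was noted because dox was followed by 112, 203 and 30.0 CPM in wildtype retinas and by 20.3, 28.8 and 28.0 CPM in PRDM13-OE retinas, so that the effect of dox was tested to differ between the genotypes. The call was lost in 11 of 20 alternatives, among them robust fitting, the replicate block and leaving out the lens-high wildtype dox retinas 1 and 2 (log2FC −0.52, edgeR adjusted p = 0.544). The smallest adjusted p, 8.6e-94, came from edgeR without a count filter, a fit whose p-values are doubtful at this size.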

How the results depend on the processing

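For PRDM13-OE dox against wildtype dox retinas, 0 members were called with robust fitting and with the lens covariate. In these fits 2.16% and 0.759% of all genes were called. The fit without both lens-high wildtype dox retinas keeps 1 wildtype dox retina, and its log2FC for Igfbp7 is given above. Without the fold cutoff 2 members were called, where 12.5% of all genes passed. With 1 retina left out the count ran from 0 to 1. For wildtype dox against untreated retinas, 1 member (Igfbp7) was called without the count filter, a setting in which edgeR called 186 of 28401 genes against 1 of 20631, and 0 to 1 with 1 retina left out. For the retinal interaction, 0 members were called with robust fitting (0.896% of all genes) and with the replicate block (0.799% of all genes). Igfbp7 was at −2.34 with the block, with an adjusted p that rounds to 0.05. Its log2FC without both lens-high retinas is given above. With 1 retina left out, 0 to 1 members were called. For wildtype dox against untreated eye cups, DESeq2 called 3 members, no filter 2 (3.65% of all genes were called there), and fits with 1 eye cup left out 0 to 5. Igfbp5 reversed there with the rod covariate, to 0.02, and Igfbp6 and Igfbp2 moved to −0.27 and −0.17. In the tissue comparison 7 members were called with library size and without untreated wildtype eye cup 3, where Igf1 was lost (47.4% and 43.7% of all genes were called), and Igf2 ranged from 0.06 to 1.03. The cause was not tested. The replicate block changed no other count of members called, and paired fits of eye cup against retina called 8, where 40.8% of all genes were called. The numbers pair only the tissues of 1 mouse. Between groups mice share only a number, and their residual correlations ran from −0.59 to 0.68. Groups of 3, low retinal counts of H19 (6 to 27) and Igf2 (39 to 83), and p-values that measure spread between mice of a single line limit these results.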

Other observations

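The mice whose retinas held the most Igfbp7, wildtype dox mice 1 and 2, had 212 and 278 CPM of Igfbp7 in their eye cups, and 212 CPM was the lowest of all 12 eye cups. Eye cup Igf1 was highest in untreated wildtype mice 3 and 1 (76.5 and 66.3 CPM) and untreated PRDM13-OE mouse 3 (53.4 CPM), which are 3 of the 4 mice with Xist at 0 CPM in the retina. The fourth such mouse, wildtype dox mouse 3, had 50.5 CPM, and the other 8 eye cups had 25.2 to 45.5 CPM. This order was noticed after the values were seen and was not tested.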
